A study of Mus musculus with 4 samples.

Results

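The genes described are 10 transcription factors of the mouse node and notochord, T, Foxa2, Foxa1, Gsc, Lhx1, Foxd4, Mixl1, Sox9, Mnx1 and Otx2. They were chosen by name, and every probe carrying one of the names was kept, with Mnx1 found under its older name Hlxb9. They were read by 13 of the 41174 gene probes of an Agilent 2-colour array, and all 10 belonged to the 18580 genes measured. The first group was RNA from embryos homozygous for a GFP insertion in the homeobox gene Noto (Noto GFP/GFP). The second group was RNA from heterozygous embryos (Noto GFP/+). Both carried the NotoGFP allele on a mixed Sv129/CD-1 background, and no embryo without the allele was among the samples. Embryos were taken at the early headfold stage, about E7.75, and the distal end holding the node was cut off and pooled in lots of 120 to 150 pieces. The labels differ on how large the cut piece was. The labels call the repeat of each genotype a technical replicate, so each genotype stands for 1 RNA pool measured on 2 arrays with the dyes exchanged. Probes for Noto were not analysed here, so the genotype labels were not checked by the targeted gene.

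The node lies at the distal tip of the embryo at this stage, and its cells feed the notochord, the rod of axial mesoderm that underlies the neural tube. Foxa2 and T are required for the notochord, while Gsc, Lhx1 and Otx2 also act farther forward, in the prechordal plate, the anterior visceral endoderm and the head. A pooled distal piece holds neural ectoderm, mesoderm and endoderm beside the node. Otx2, Sox9, Mixl1, Foxa1 and Lhx1 are also used in those tissues. In such a bulk sample, fewer cells of a type and less RNA per cell cannot be told apart.

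The probe sequences are shown because several members were read by a single spot, and because the probes of Sox9 disagreed. Each line gives the first 30 of the probe's 60 bases, 5′ to 3′ as in the deposited files, with no base marked.
T: taagagcaataatacatgtcctataatcat
Foxa2: ccattctggacatggtgaaatccaggtctc
Foxd4: catgctccgaaacccgtaggtaatacaaat
Mnx1: cgtcggagaaaggaaaaaacagtgttaagt
Gsc: ccgtagtatttatagttaagttaacggtga
Lhx1, 10-spot probe: gcccagtccacctttctcatctctgtcggt
Lhx1, 1-spot probe: tatgtaaaaaggtgttgtttacacgaggca
Sox9, 10-spot probe: ataaaaccttaaagcgttcttataatatgg
Sox9, brighter 1-spot probe: ttccaggagagagactttaagactttgtct
Sox9, dimmer 1-spot probe: actctgggcaagctctggaggctgctgaac

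On mouse build mm8 the files place these probes at chr17:8280179-8280238 on the plus strand for T, chr2:147734403-147734462 on the minus strand for Foxa2, and chr19:24966124-24966183 on the minus strand for Foxd4. The Mnx1 probe lies at chr5:29804292-29804351 and the Gsc probe at chr12:104872266-104872325, both on the minus strand. The Lhx1 probes lie at chr11:84335784-84335843 (10 spots) and chr11:84334581-84334640 (1 spot) on the minus strand, with starts 1203 bases apart. The Sox9 probes lie on the plus strand at chr11:112603585-112603644 (10 spots), chr11:112601784-112601843 (brighter, 1 spot) and chr11:112599086-112599938 (dimmer, 1 spot). The last one covers 853 bases of genome with 60 bases of probe, so its bases do not lie in 1 unbroken run there. The remaining probes lie at chr12:58459021-58459080 for Foxa1, chr1:182530854-182530913 for Mixl1 and chr14:47580372-47580431 for Otx2, all on the minus strand. Which exon or untranslated region each probe covers was not examined. The longest run of bases that a member's probe shared with a probe of another gene was between 13 and 15.

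A factor was called when both arrays put it at least 1.5-fold (log2 0.58) to the same side. None of the 10 met this, so 0 were called lower and 0 higher in the Noto GFP/GFP pool. By that rule 2.35% of all measured genes were called lower and 0.0592% higher. At 2-fold the members again gave 0 and 0, against 0.506% of genes lower and 0.0108% higher. At probe level 0 of 13 were called, against 2.10% of measured probes. Gsc and Foxd4 had the lowest ratios, and T had the highest. Ratios are log2 of Noto GFP/GFP over Noto GFP/+, given as the mean ± SD over 2 arrays of the same pools, so the SD is technical spread and no difference has a biological replicate. No significance test was possible with 1 pool per genotype.

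Every member probe was well above background in all 4 samples and none was saturated (0 spots). By their brightest probe, 8 of the 10 factors were brighter than the median measured gene, and Mixl1 and Mnx1 were dimmer. Brightness bears on the background, because calls of lower genes were concentrated among dim ones. Of the genes dimmer than the median 4.07% were called lower, against 0.635% of the brighter ones. The median ratio of the 10 factors was −0.19 ± 0.02 (SD of the medians of 2 arrays), and that of all measured genes was −0.02. For the 8 brighter factors the median was −0.14, against −0.00 for the brighter genes. Under median centring the members' median was 0.019 and that of all genes 0.12, so the members' median stayed below that of all genes but turned above 0. The median difference between the arrays was 0.168 for the members and 0.172 for all measured genes, so a shift below about that size lies within the technical spread.

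**Figure D1:**
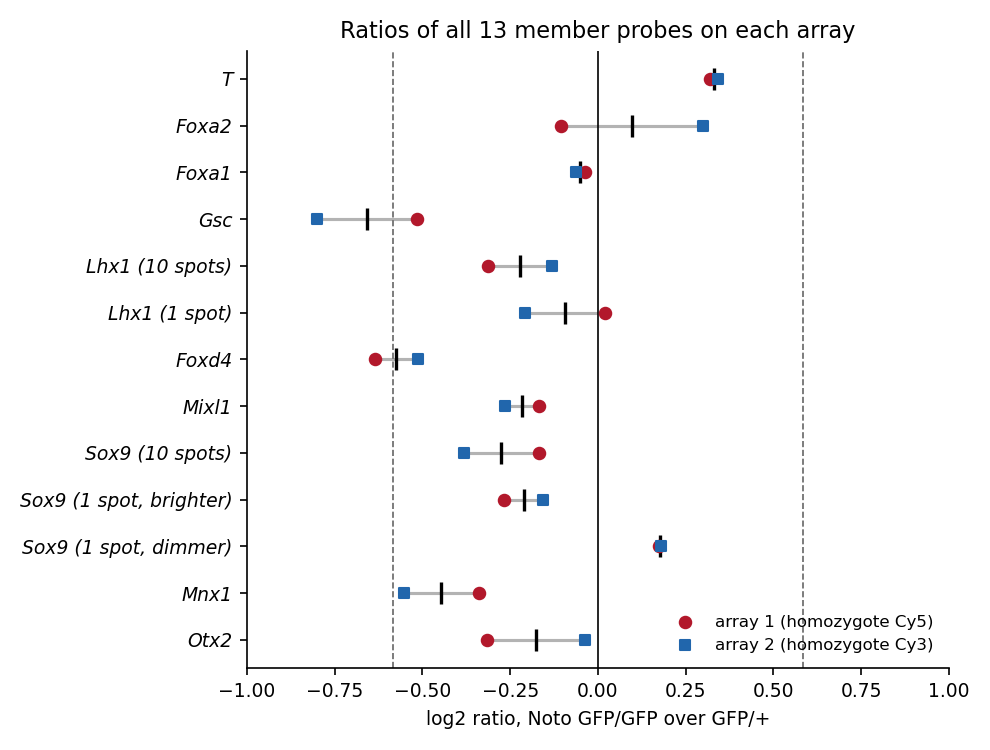
Log2 ratio of Noto GFP/GFP over Noto GFP/+ (axis) for each of the 13 member probes on each of the 2 arrays (points), with the mean (black tick), a grey line joining both arrays and the 1.5-fold thresholds (dashed). T lies above 0 on both arrays, Gsc and Foxd4 lie lowest, and no probe passes the threshold on both.

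T, or brachyury, the T-box factor that gives the notochord and posterior mesoderm their identity, was the only factor whose brightest probe was higher in both Noto GFP/GFP samples than in either Noto GFP/+ sample. Its normalised intensity was 43929 and 52862 in the Noto GFP/GFP samples, against 35207 and 41689.9 in the Noto GFP/+ samples (arrays 1 and 2). The groups did not overlap. The ratio was 0.32 on array 1 and 0.34 on array 2, with a mean of 0.33 ± 0.02, a 1.26-fold difference. With median centring in place of the loess fit it lay at 1.12 and −0.09, where the median of all genes lay at 0.39 and −0.16. Among the 9290 brighter genes, 157 (1.69%) had a mean ratio at least as high.

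Foxa2, the forkhead factor without which node and notochord do not form, gave overlapping groups. Its intensity was 59694.5 and 55123 in the Noto GFP/GFP samples and 64221 and 44806 in the Noto GFP/+ samples. The ratio was −0.11 on array 1 and 0.30 on array 2, with a mean of 0.10 ± 0.29, so the arrays disagreed in sign. Foxa1, a related forkhead factor of notochord and endoderm, measured 3301 and 4204 in the Noto GFP/GFP samples and 3388 and 4393 in the Noto GFP/+ samples. Its groups overlapped as well, and its ratio of −0.05 ± 0.02 was the nearest to 0 of the 10.

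Foxd4, a forkhead factor of notochord and anterior neural ectoderm, had both Noto GFP/GFP levels below both Noto GFP/+ levels. Its intensity was 9437 and 10765 in the Noto GFP/GFP samples, against 14661 and 15362 in the Noto GFP/+ samples. The ratio was −0.64 on array 1 and −0.51 on array 2, a mean of −0.57 ± 0.09 (0.672-fold), so it passed 1.5-fold on array 1 and missed it on array 2. Only 93 of the 9290 brighter genes had a ratio that low or lower.

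Mnx1, a homeobox factor of the notochord that is also used in motor neurons and pancreas, was read by 1 dim spot. It measured 703 and 871 in the Noto GFP/GFP samples, against 889 and 1277 in the Noto GFP/+ samples. The groups did not overlap, though the higher Noto GFP/GFP value came close to the lower Noto GFP/+ value. The ratio was −0.34 on array 1 and −0.55 on array 2, with a mean of −0.45 ± 0.15 (0.734-fold).

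Sox9, the chondrogenic factor that works with Sox5 and Sox6 in the notochord sheath, was read by 3 probes that disagreed. The brighter 1-spot probe measured 7019 and 7131 in the Noto GFP/GFP samples, against 8443 and 7949 in the Noto GFP/+ samples, a ratio of −0.21 ± 0.08. The 10-spot probe measured 3894 and 3114 in the Noto GFP/GFP samples, against 4377 and 4061 in the Noto GFP/+ samples, a ratio of −0.28 ± 0.15. Its groups did not overlap, and those of the brighter 1-spot probe did not either.

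The dimmer Sox9 probe, the one that is split over 853 bases, measured 195 and 206 in the Noto GFP/GFP samples, against 173 and 182 in the Noto GFP/+ samples. It therefore pointed the other way, with ratios of 0.17 and 0.18 on the 2 arrays. Sox9 is given by its brightest probe below, and the direction depends on that choice of probe. The reason for the disagreement was not tested.

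**Figure D2:**
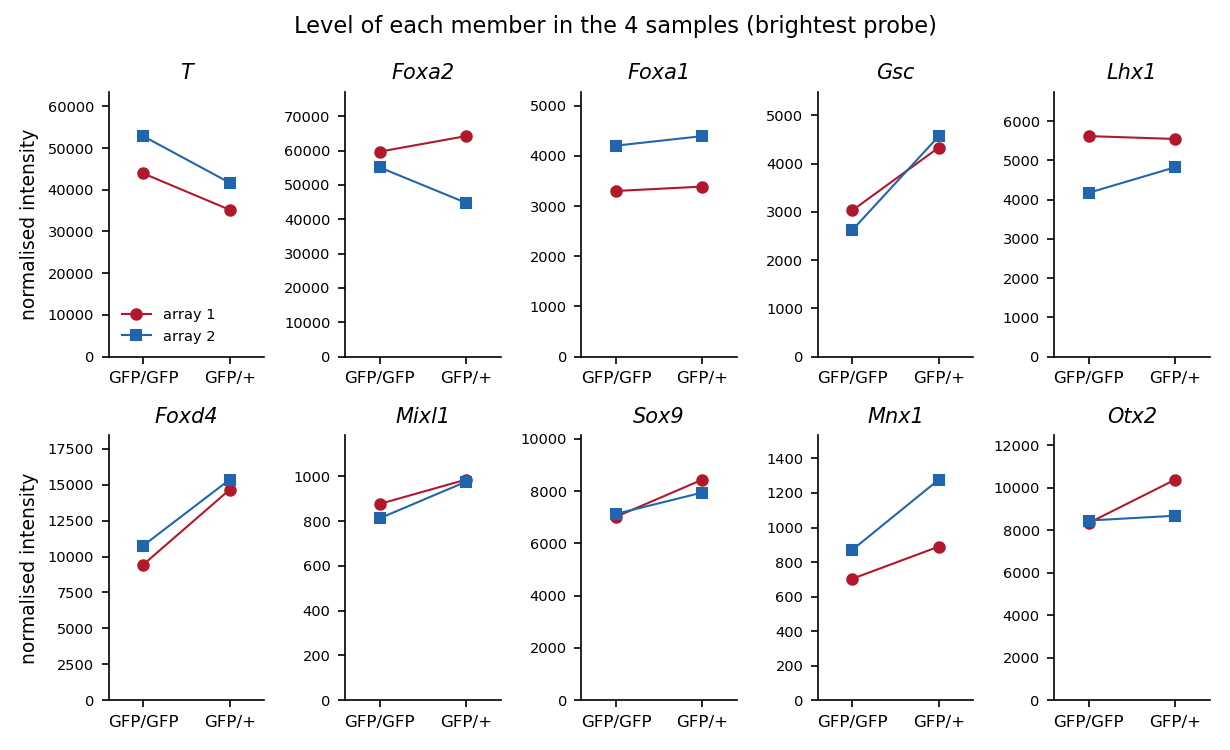
Normalised intensity (linear axes from 0, a scale for each gene) of each member's brightest probe in the 4 samples, Noto GFP/GFP left of Noto GFP/+, with a line joining both samples of an array. T is higher and Foxd4 and Gsc are lower in Noto GFP/GFP on both arrays, and the lines of Foxa2 slope in opposite directions.

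Of the factors with a role in the prechordal plate and head, Gsc stood lowest. Gsc (goosecoid), the homeobox gene of the organiser and prechordal plate, measured 3032 and 2623 in the Noto GFP/GFP samples, against 4334 and 4570.4 in the Noto GFP/+ samples. The groups did not overlap. The ratio was −0.52 on array 1 and −0.80 on array 2, a mean of −0.66 ± 0.20 (0.634-fold), so Gsc passed 1.5-fold on array 2 and missed it on array 1. Of the 9290 brighter genes, 61 had a ratio that low or lower. Gsc itself stood near the middle in brightness, with 52.8% of measured genes dimmer, so most of those 9290 genes were brighter than Gsc.

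Lhx1, a LIM homeobox factor required for head formation, had a brighter probe whose arrays differed in sign. That 1-spot probe measured 5619 and 4176 in the Noto GFP/GFP samples and 5547 and 4826 in the Noto GFP/+ samples, a ratio of −0.10 ± 0.16. The 10-spot probe measured 5651 and 3329 in the Noto GFP/GFP samples and 7027 and 3645 in the Noto GFP/+ samples. Its ratio was −0.31 on array 1 and −0.13 on array 2, with a mean of −0.22 ± 0.13. The groups of both probes overlapped.

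Otx2, a homeobox factor of the forebrain, anterior visceral endoderm and prechordal region, measured 8344 and 8461 in the Noto GFP/GFP samples, against 10386.5 and 8685 in the Noto GFP/+ samples. The groups did not overlap, but the arrays differed in size. The ratio was −0.32 on array 1 and −0.04 on array 2, with a mean of −0.18 ± 0.20, which is within its own technical spread. Mixl1, a homeobox factor of the primitive streak, measured 877 and 813 in the Noto GFP/GFP samples, against 986 and 976 in the Noto GFP/+ samples. Its groups did not overlap, and the ratio was −0.22 ± 0.07.

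By the brightest probe of each gene, 6 of 10 factors (Foxd4, Gsc, Mnx1, Mixl1, Sox9 and Otx2) had both Noto GFP/GFP levels below both Noto GFP/+ levels, where 16.7% of all measured genes did. T alone had both above, where 10.7% of genes did. Foxa2, Foxa1 and Lhx1 overlapped. Overlap sets levels of different arrays against each other, whereas a ratio compares the genotypes within an array. Restricted to brighter genes, 4 of 8 members were lower without overlap, against 9.62% of genes, and 1 was higher, against 9.75%. The ratio lay below 0 on both arrays for 7 of 10 factors, against 34.0% of all measured genes, and above 0 on both for 1, against 25.7%. The other 2, Foxa2 and Lhx1, had opposite signs. Among the brighter genes 5 of 8 members lay below 0 on both arrays, against 25.1%.

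At a weaker threshold of 0.322 (log2) on each array, 3 of 10 factors were lower (Gsc, Foxd4 and Mnx1), against 6.38% of all measured genes. None of the 10 was higher at that threshold (0), against 1.18%, as T fell just short of it on array 1 with 0.319. Among brighter genes 2 of 8 members were lower, against 1.88%. These shares describe the arrays and do not rest on replicate pools.

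The ratios of the members thus lay on both sides of 0, and the gaps between them were read within each array. T lay above Gsc by 0.83 on array 1 and 1.14 on array 2, a mean gap of 0.99 ± 0.22. It lay above Foxd4 by 0.91 ± 0.07 and above Mnx1 by 0.78 ± 0.17. Each of these gaps exceeded its own technical SD several times over. However, T was the highest of the members and Gsc, Foxd4 and Mnx1 the lowest, so these pairs were picked as extremes of the same values. How far apart the extremes of other sets of genes lie was not examined.

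T and Foxa2, the pair of factors required for the notochord, could not be separated, with gaps of 0.42 and 0.04 on the arrays. By its brightest probe Lhx1 lay above Gsc by 0.56 ± 0.04. The 10-spot Lhx1 probe also lay above Gsc on both arrays, at −0.31 and −0.13 against −0.52 and −0.80. Its gap differed more between the arrays than that of the brightest probe. Otx2 lay above Gsc by 0.20 on array 1 and 0.76 on array 2, and Foxa2 lay above Gsc by 0.41 and 1.10, so the sizes of those gaps were poorly fixed. Ordered from high to low the ratios ran T, Foxa2, Foxa1, Lhx1, Otx2, Sox9, Mixl1, Mnx1, Foxd4 and Gsc. Neighbours in that order differed by less than the technical spread, except that Mnx1 lay below Mixl1 by more than either SD.

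**Figure D3:**
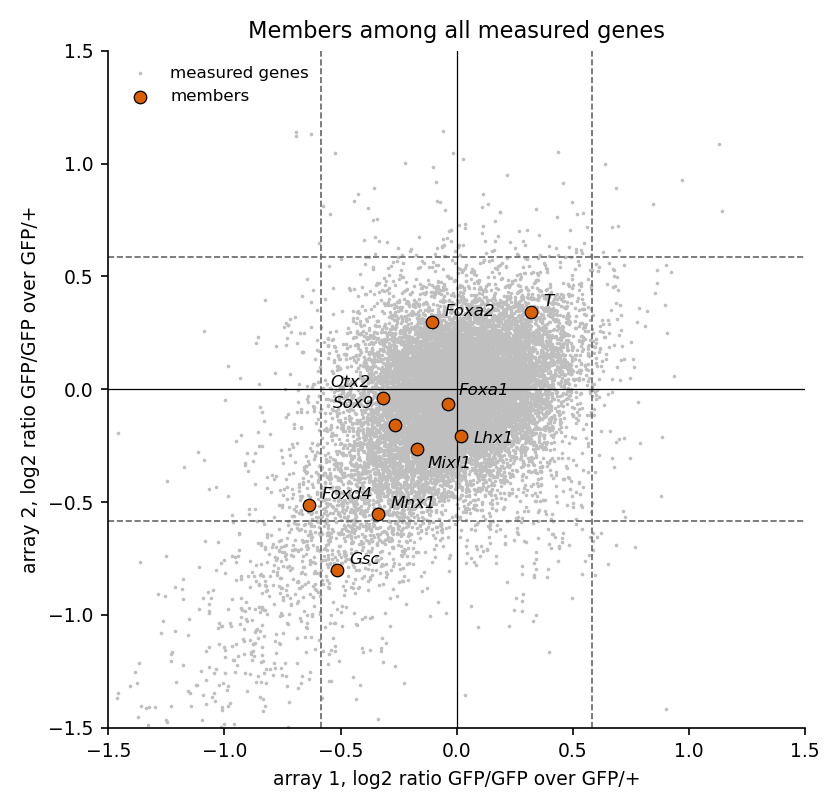
Log2 ratio of Noto GFP/GFP over Noto GFP/+ on array 1 (x axis) against array 2 (y axis) for all 18580 measured genes (grey) and the 10 members (named points), with the 1.5-fold thresholds (dashed) and with 55 genes outside the plotted window of ±1.5. T lies in the upper right, Gsc and Foxd4 at the lower left, and Foxa2 and Lhx1 in quadrants where the arrays disagree in sign.

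Probes printed as 10 spots on each array show how far the spread between arrays exceeds the spread within one. The 10 Foxa2 spots lay between −0.30 and −0.04 on array 1 (median −0.08) and between 0.24 and 0.33 on array 2 (median 0.31). The 2 sets of spots did not meet, so the disagreement over Foxa2 is between arrays and not between spots. The Otx2 spots lay between −0.40 and −0.24 on array 1 and between −0.06 and −0.01 on array 2, again apart.

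The T spots were the exception, since those of both arrays covered nearly the same range. The 9 kept spots of T lay between 0.28 and 0.37 on array 1, after 1 outlier spot was dropped, and the 10 spots on array 2 lay between 0.26 and 0.39. The Lhx1 spots ranged from −0.36 to −0.24 on array 1 and from −0.16 to −0.09 on array 2. The Sox9 spots ranged from −0.33 to −0.07 on array 1 and from −0.41 to −0.34 on array 2.

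Over the 154 measured probes with at least 9 kept spots on each array, the median SD between spots was 0.052 on array 1 and 0.035 on array 2, while the median difference between arrays was 0.189. The array difference exceeded both spot SDs for 126 of them (81.8%). Gsc, Foxd4, Mnx1, Mixl1 and Foxa1 were read by 1 spot per array and have no such check.

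**Figure D4:**
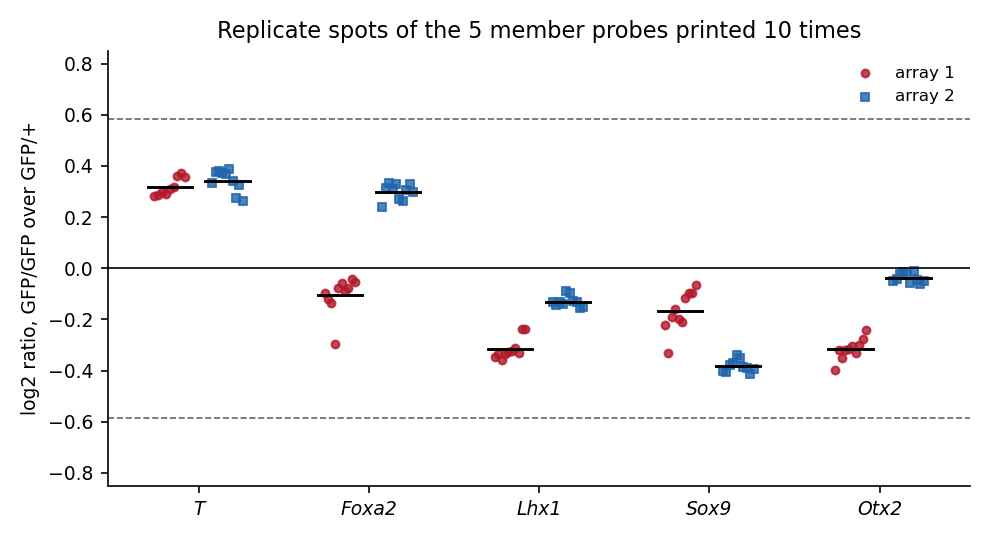
Log2 ratio of Noto GFP/GFP over Noto GFP/+ of every kept spot of the 5 member probes printed as 10 spots, by array (points), with the mean (black line) and the 1.5-fold thresholds (dashed). The T spots of both arrays share a range, whereas the spots of Foxa2, Lhx1, Otx2 and Sox9 sit apart by array.

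Other genes of the axial midline were set beside these factors. Of 31 listed axial midline genes outside the members, 29 were measured, and 0 were called lower and 0 higher at 1.5-fold. Their median was −0.06 on array 1 and −0.02 on array 2. Of the 29, 11 (37.9%) lay below 0 and 8 (27.6%) above 0 on both arrays, against 34.0% and 25.7% of all measured genes. At the threshold of 0.322 on each array 5 were lower, namely Shh, Nog, Foxj1, Foxa3 and Lefty1, of which Lefty1 was picked out after its value was seen, and 0 were higher. Of all measured genes 6.38% were lower and 1.18% higher by that rule. Of these 5 genes only Foxj1 was brighter than the median gene. The rule took 10.9% of the dimmer genes as lower, against 1.88% of the brighter ones.

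Shh, the signal secreted by node and notochord, measured 1748 and 1914 in the Noto GFP/GFP samples, against 2302 and 2690.3 in the Noto GFP/+ samples, a ratio of −0.44 ± 0.07. Foxj1, the factor that drives motile cilia, measured 10145.5 and 11204 in the Noto GFP/GFP samples, against 15229 and 15381 in the Noto GFP/+ samples, a ratio of −0.52 ± 0.09. Neither gene's groups overlapped. Foxa3, the third forkhead of the Foxa family, was listed under definitive endoderm as well as axial midline. It was also lower in both samples, with a ratio of −0.51 ± 0.02 that lay below those of Foxa1 and Foxa2 on both arrays.

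The secreted BMP antagonists of the node did not share a value. Nog (noggin) had a ratio of −0.40 ± 0.07, with 487 and 852 in the Noto GFP/GFP samples and 622 and 1168 in the Noto GFP/+ samples. These groups overlapped across the arrays, though Nog was lower within each array (−0.35 and −0.46). Chrd (chordin) had a ratio of 0.08 ± 0.03, also with overlapping groups. Nodal, the signal upstream of the node, lay at −0.03 ± 0.05, and Eomes, a T-box factor of the streak, at −0.02 ± 0.09.

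Markers of anterior tissue lay on both sides of 0, with Lefty1 at −0.51 ± 0.20 and Lhx5 at −0.25 ± 0.11. Cer1, a secreted antagonist of the anterior visceral and definitive endoderm, measured 52450 and 50659 in the Noto GFP/GFP samples, against 45471 and 43682 in the Noto GFP/+ samples, a ratio of 0.21 ± 0.01. Dkk1, a Wnt antagonist of the prechordal plate, had one probe at 0.49 and −0.03 on the arrays and a second at 0.27 and 0.30. Six3, a homeobox factor of the forebrain, had a ratio of 0.21 ± 0.05 on 1 dim probe. Hesx1, another forebrain factor, was not well above background in any sample.

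**Figure D5:**
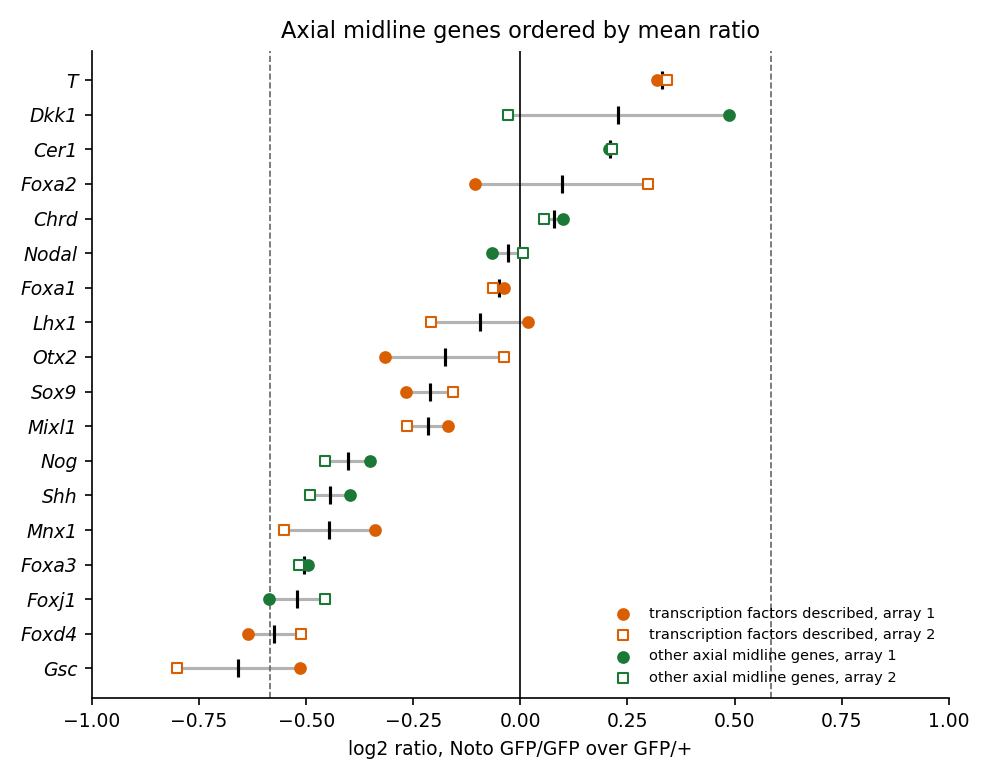
Mean log2 ratio of Noto GFP/GFP over Noto GFP/+ (black tick) with both arrays' values (points) for the brightest probes of the 10 members and of 8 other axial genes, with the 1.5-fold thresholds (dashed). Gsc, Foxd4, Foxj1, Foxa3, Shh, Mnx1 and Nog lie below −0.4 and T, Dkk1 and Cer1 lie above 0.2.

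The tissues that share these factors were also listed. Of 23 measured genes of primitive streak and nascent mesoderm, where T and Mixl1 are expressed, only Meox1, a somite homeobox gene, was called lower (−0.62 ± 0.04), and the median was 0.01. That list had 0 lower calls under median centring and 0 with the mean over a gene's probes. Of 23 regulators and cofactors of node formation 0 were called, with a median of −0.02. Of 13 definitive endoderm genes, tissue that also expresses Foxa1 and Foxa2, 0 were called, with a median of −0.02. The 8 genes of the anterior visceral endoderm (0 called) and the 15 of visceral and yolk sac endoderm (0 called) had medians of −0.02 and 0.01.

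Genes of the neural plate, which shares Otx2 and Foxd4, lay on both sides of 0. On both arrays 10 (52.6%) lay below 0 and 7 (36.8%) above 0, against 34.0% and 25.7% of all measured genes. Only 7 of the 19 measured were brighter than the median gene, and among dimmer genes the shares were 43.0% and 26.8%. For the 19 measured genes of anterior neural plate and neural ectoderm the summed level was 73343 and 85044 in the Noto GFP/GFP samples, against 88995 and 99738 in the Noto GFP/+ samples. Such a sum is set by its brightest genes, here led by Gbx2 (−0.30 ± 0.06), a homeobox gene chosen after its value was seen. The median ratio of the list was −0.08 on array 1 and −0.01 on array 2. Hesx1, Pax2, En1 and Olig2 were not measured. None was called at 1.5-fold (0), while at the threshold of 0.322 Zic2 was lower (−0.64 ± 0.32) and Pax6 higher (0.45 ± 0.14), both picked out after their values were seen. That threshold took 6.38% of all measured genes as lower and 1.18% as higher. The part of neural tissue in the ratios of Otx2 and Foxd4 was not tested. Of 13 neural crest and chondrogenic partners of Sox9, 0 were called and the median was −0.10.

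Markers of blood and endothelium were mixed, with 8 (61.5%) below 0 and 3 (23.1%) above 0 on both arrays. Of all measured genes 34.0% and 25.7% did so. Only 1 of the 13 was brighter than the median gene, and among dimmer genes the shares were 43.0% and 26.8%. For the 13 measured genes of blood and endothelium the summed level was 15995 and 16860 in the Noto GFP/GFP samples, against 22958 and 22110 in the Noto GFP/+ samples. The brightest of them was Etv2, a factor of blood and endothelial precursors, at −0.59 ± 0.21. Hba-a1, the alpha globin gene, was called lower (−1.05 ± 0.18), while the erythroid factor Gata1 lay at 0.21 ± 0.11 and Klf1 at −0.07 ± 0.12. Etv2, Gata1 and Klf1 were picked out after their values were seen. Of 13 heart and lateral mesoderm genes, Nppa, a natriuretic peptide gene, was called lower (−0.61 ± 0.03). That list had 0 lower calls without background correction and 0 under median centring. Myh6, a cardiac myosin gene picked out after its value was seen, lay the other way at 0.48 ± 0.06. The median of the list was −0.15 on array 1 and −0.13 on array 2. Of 9 trophoblast and decidua genes, Prl8a2, a decidual prolactin-family gene, was called higher (1.11 ± 0.03). Besides neural plate and blood, only definitive endoderm had summed levels lower without overlap. They were 104959 and 105629 in the Noto GFP/GFP samples, against 112637 and 107400 in the Noto GFP/+ samples. The sums of every other list overlapped, among them that of the axial midline genes outside the members. Whether such differences in the makeup of the pools bear on the members was not tested.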

How the data were processed

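Labelled RNA of a Noto GFP/GFP pool and a Noto GFP/+ pool was hybridised together on each of 2 arrays, with dyes exchanged (homozygote in Cy5 on array 1 and in Cy3 on array 2). The files of both samples on an array were identical, so each array was read once. Per the file headers, the authors extracted foreground and background intensity, a dye-normalized processed intensity and a log10 ratio with Agilent Feature Extraction 9.5.3.1, with probe positions on mm8. The other columns used, flags for background, saturation and outliers, were also deposited. The deposited value table held intensities 1.07 (array 1) and 1.28 (array 2) times the processed signal of the dye that each label names, floored at 15, with medians of 109.6 and 95.1 for the Noto GFP/GFP columns and 110.6 and 96.2 for the Noto GFP/+ columns. The method behind those factors is unstated.

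Each array held 43379 gene spots, of which 64.0% to 81.5% per dye were well above background. Spiked-in controls had observed log ratios that rose with the expected ones at slopes of 0.809 and 0.705, so ratios were compressed. The ratios of the 2 arrays correlated across genes at 0.50, and at 0.13 among the brighter genes. The number of arrays limits the precision.

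In limma 3.58.1 (R 4.3.3), intensities were corrected by normexp with an offset of 50 and normalised by loess within arrays with control spots at weight 0. Outlier spots (179 and 165) were dropped, array 2 was turned, and spots of a probe were averaged. Levels were made comparable between arrays by Aquantile. A probe was measured (27734 of 41174) if well above background on both arrays in 1 genotype or both, and each gene was represented by its brightest measured probe. Names came from the files and a RefSeq table (GRCm38.p6, names only), which named 33115 probes, while 8059 stayed under their deposited name. Summaries used Python 3.11.15 (pandas 2.3.3, numpy 2.4.6) and plots matplotlib 3.10.9. The calling rule was run on simulated data in which the changed probes differed by 2-fold or more, beyond the ratio of any member. The simulated noise was drawn spot by spot, with no shift between arrays shared by the spots of a probe. It therefore cannot show how the rule treats changes as small as those of the members. The text names all members, 10 axial and anterior genes and 7 close relatives whatever their values, and called members of the lists. The members, lists and rules were chosen with earlier results of these data known.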

Additional observations from a re-analysis of the deposited data

How the results depend on the processing

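With 2 arrays of 1 pool per genotype, all spread given is technical, and dim 1-spot probes such as that of Mnx1 have no check within an array. No paired analysis was possible because a ratio sets both genotypes of 1 array against each other already, and no test was made. None of the 10 members was called lower or higher (0 and 0) under any of the 7 other settings of background, ratio source, normalization, probe choice or filter, nor at 2-fold. With 1 array left out, between 1 and 1 members were called lower, Gsc without replicate 1 and Foxd4 without replicate 2. At the threshold of 0.322 (log2) on each array 3 members were lower. The median of the members was −0.17 with the mean over a gene's probes, since the probes of Sox9 then average to −0.10. Median centring, used instead of loess, gave 0.019, a setting that moved the median of all genes to 0.12 (0.39 on array 1 and −0.16 on array 2). Relative to that median, T stood at 0.39, Gsc at −0.59, Foxd4 at −0.48 and Mnx1 at −0.49, while Lhx1, Foxa1 and Otx2 stood at −0.01, 0.01 and −0.08. Without that correction Foxa1 (0.13), Lhx1 (0.11) and Otx2 (0.04) changed sign. Gsc, Foxd4 and Mnx1 lay below 0 on both arrays under 7 of 7 settings, and T above 0 on both under 6, the exception being median centring (1.12 and −0.09). Not all of these settings were separate checks. With 1 probe each, these genes kept their main values under both brightness filters and the probe mean. The deposited value table held the scanner's processed signal rescaled, so it largely repeats the scanner software's log ratio. Over the 7 settings the ratio ranged from −0.70 to −0.47 for Gsc, −0.57 to −0.36 for Foxd4, −0.46 to −0.37 for Mnx1 and 0.32 to 0.52 for T. Of 70 member values under other settings, 10 moved beyond their technical SD. Every member probe was well above background in every sample, so the brightness filters could not move any value. The probe mean could move only Lhx1 and Sox9, the members with more than 1 probe. Many of the values that did not move were therefore fixed in advance. Over all genes, 437 were lower and 11 higher at 1.5-fold, against 713 and 101 with the scanner software's log ratio and 651 and 95 with the deposited value table, so the share of calls that were lower was 97.5%, 87.6% and 87.3%. At the threshold of 0.322 the counts were 1185 and 219, at 2-fold 94 and 2, without replicate 1 945 and 113, and without replicate 2 644 and 124.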

Other observations

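The close relatives of the members lay on both sides of 0. Of 37 listed relatives 29 were measured, 0 were called at 1.5-fold and the median log2 ratio of Noto GFP/GFP over Noto GFP/+ was −0.03. Of the measured relatives 15 (51.7%) lay below 0 on both arrays and 7 (24.1%) above 0 on both, against 34.0% and 25.7% of all measured genes. Most of the relatives were dimmer than the median gene, and among dimmer genes the shares were 43.0% and 26.8%. The median of the 7 relatives brighter than the median gene was −0.25. Lhx5, the LIM homeobox relative of Lhx1, measured 10813 and 8931 in the Noto GFP/GFP samples, against 12123 and 11199 in the Noto GFP/+ samples, a ratio of −0.25 ± 0.11 without overlap of the groups. The relatives of Foxd4 were Foxd1 at −0.07 ± 0.05, Foxd3 at −0.12 ± 0.02 and Foxd2 at 0.14 ± 0.34, so none lay as low as Foxd4. Gsc2, a paralogue of Gsc, lay at −0.21 ± 0.12 with overlapping groups, and Otx1, the paralogue of Otx2, lay at 0.15 ± 0.03. At a threshold of 0.322 on each array, Tbx1 (−0.41 ± 0.02) and Foxa3 (−0.51 ± 0.02) were lower and Tbx15 (0.47 ± 0.01) was higher, of which the T-box genes were picked out after their values were seen. By that rule 6.38% of all measured genes were lower and 1.18% higher. Foxa3 and Tbx15 were dimmer than the median gene.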
